A study of Mus musculus with 4 samples.

Results

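This report follows 10 of the 32285 genes counted in single-cell RNA sequencing of mammary tumor leukocytes. They are 7 genes for matrix and matricellular proteins, Fn1, Vcan, Thbs1, Spp1, Sparc, Tgfbi and Ecm1, and 3 genes for cell surface matrix receptors, Cd44, Sdc3 and Sdc4. The genes were listed by name for their role, and each was followed across cell types of the tumor as UMIs (counted RNA molecules) per 10000 UMIs of the cell type in each tumor. EO771 mouse mammary tumor cells were grown in the mammary fat pad of female mice to 1.5 cm3, and viable CD45+ cells were sorted. The host mice were 2 Csf1rfl/fl mice, which carry a floxed Csf1r gene and no Cre, and 2 Lyve1CreCsf1rfl/fl mice, which carry the same floxed gene together with a Cre expressed from Lyve1. The Cre can act in any cell with a history of Lyve1 expression, so lymphatic endothelium is also open to recombination, while Csf1r itself is needed mainly by mononuclear phagocytes. Each of 2 Chromium runs pooled 1 tumor of each genotype, and hashtag antibodies told the tumors apart. The run is therefore balanced over genotype, and each genotype has n = 2 tumors.

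Each cell was given to a tumor by the barcode of its hashtag antibody, and all genotype values below rest on this assignment. The barcode of hashtag A0301 marked the Csf1rfl/fl tumor of run 1 and the Lyve1CreCsf1rfl/fl tumor of run 2, and that of A0302 marked the other tumor of each run. Both are shown because they carry the genotype, and the capitals mark the whole barcode.
A0301: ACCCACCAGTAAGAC
A0302: GGTCGAGAGCATTCA

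The extracellular matrix is the mesh of glycoproteins, proteoglycans, collagens and hyaluronan around cells. Fibronectin and versican build provisional matrix in wounds and tumors, and matricellular proteins such as thrombospondin 1 and osteopontin signal to cells without giving much mechanical support. Cells grip this mesh through integrins, through CD44, the main leukocyte receptor for hyaluronan, and through syndecans, whose heparan sulfate chains bind matrix proteins and growth factors.

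The kept cells numbered 28429, between 4771 and 8699 per tumor, with 27686362 to 56715743 UMIs per tumor and a median of 3721 to 4657 UMIs per cell. Marker lists placed 20884 of them, or 73.5%, in 13 gates, and 3635 cells with markers of several lineages were left out of the gates. Of the latter, 1607 came from the Csf1rfl/fl tumor of run 1, which had the most kept cells, and 615 to 757 from each other tumor. The leukocyte gates had 2.62 to 16.7 UMIs of Ptprc, which encodes CD45, per 10000. A gate of 182 cells with keratin or collagen markers had 0.199, and these cells, held in the suspension after a CD45 sort, are called tumor or stromal cells. The endothelial marker of that gate, Pecam1, was at 0.0337 there, below its level in each leukocyte gate. Kept cells of the 2 runs shared 60 cell barcodes. Csf1r in Ly6c2 monocytes stood at 2.45 and 2.38 UMIs per 10000 in the Csf1rfl/fl tumors and at 1.51 and 1.35 in the Lyve1CreCsf1rfl/fl tumors. In C1q macrophages it stood at 1.85 and 2.44 against 1.53 and 1.44. Counts from the 3′ end of a transcript do not check a deletion elsewhere in the gene.

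**Figure D1:**
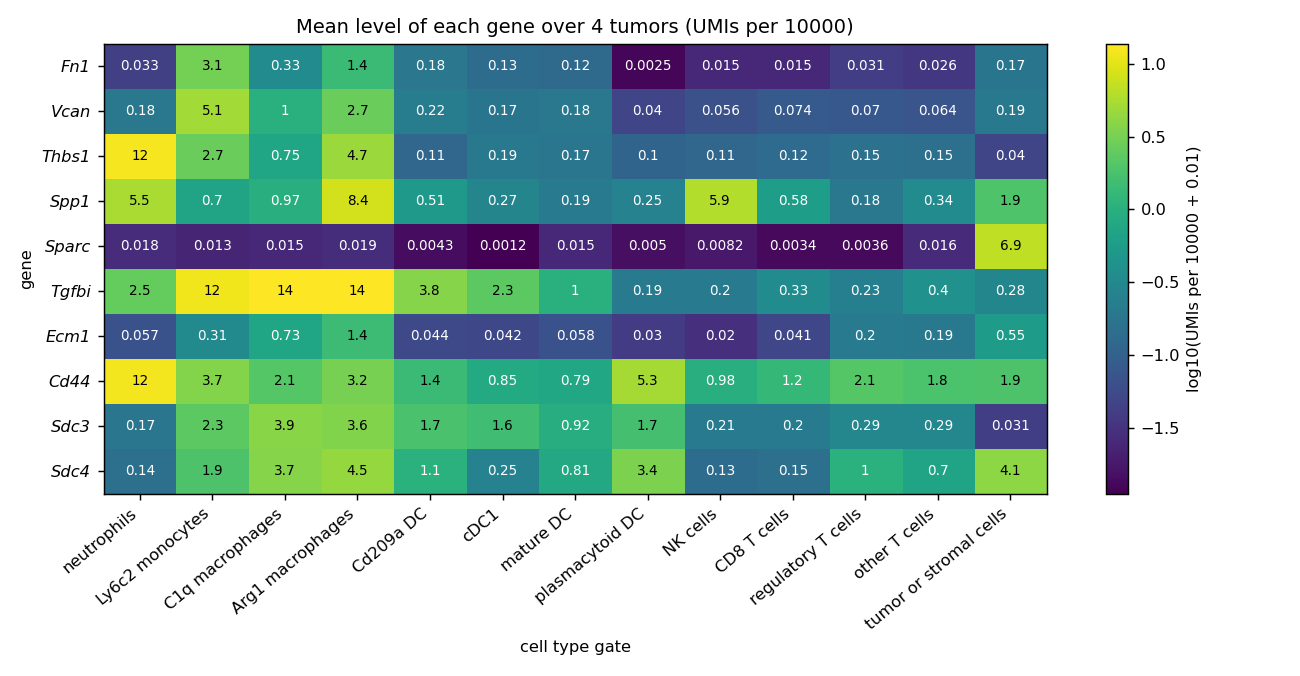
Mean level over 4 tumors of each of the 10 genes (rows) in each of 13 cell type gates (columns), in UMIs per 10000, printed in each cell and coloured on a log10 scale after adding 0.01. Fn1 and Vcan were highest in Ly6c2 monocytes, Thbs1 and Cd44 in neutrophils, Spp1 and Ecm1 in Arg1 macrophages, and Sparc in tumor or stromal cells.

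Fn1 (chr1:71585520-71653200, minus strand, mm10), which encodes fibronectin, had its highest mean in Ly6c2 monocytes among the gates of these CD45-sorted cells. Within each genotype, values are given for run 1 first and run 2 second. Ly6c2 monocytes had 1.56 and 4.29 UMIs per 10000 in Csf1rfl/fl tumors against 2.12 and 4.52 in Lyve1CreCsf1rfl/fl tumors. The tumors of run 2 were higher than those of run 1 in both genotypes. Arg1 macrophages came next with 2.37 and 1.69 against 0.616 and 0.976, so that the Csf1rfl/fl tumor of run 1 had more in Arg1 macrophages than in monocytes and the other 3 tumors had less. In that tumor 1 cell held 127 of 314 UMIs, and without it the level in Arg1 macrophages was 1.41, below that in monocytes. C1q macrophages had a mean of 0.332 ± 0.083 (SD, n = 4 tumors), below Arg1 macrophages in every tumor. All other gates had a mean of at most 0.177. Of the 8589 Fn1 UMIs in kept cells, 60.4% lay in Ly6c2 monocytes and 18.4% in the cells with markers of several lineages. Cells pooled over the 4 tumors and thinned to 1000 UMIs held an Fn1 UMI in 17.3% of Ly6c2 monocytes (exact 95% interval 15.98 to 18.6%). The interval counts cells and leaves out the spread between tumors. CD8 T cells, which should lack Fn1, had 0.0710%. Without thinning the shares were 40.2 and 0.709%, at median depths of 4867 and 4647 UMIs.

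Vcan (chr13:89655312-89742509, minus strand), which encodes the hyaluronan-binding proteoglycan versican, followed the same order. Its level in Ly6c2 monocytes was 3.26 and 6.97 in Csf1rfl/fl tumors and 3.93 and 6.11 in Lyve1CreCsf1rfl/fl tumors. Arg1 macrophages had 1.83 and 3.37 against 2.14 and 3.36. In C1q macrophages it was 0.605 and 1.42 against 0.767 and 1.19, with both tumors of run 2 above both of run 1 in all 3 gates. Ly6c2 monocytes were above Arg1 macrophages in all 4 tumors, but the ranges of the gates over the tumors overlapped. Ly6c2 monocytes held 50.8% of the 17083 UMIs of Vcan. Over the means of the 13 gates, the log2 levels of Fn1 and Vcan had Pearson's r = 0.98, with gates from the same 4 tumors and libraries as points. A 3′ count cannot tell apart the splice forms of Fn1, Vcan or Cd44.

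Thbs1 (chr2:118111876-118127133, plus strand) encodes thrombospondin 1, an inhibitor of angiogenesis and activator of latent TGFβ. Neutrophils had 8.11 and 16.6 UMIs per 10000 in Csf1rfl/fl tumors and 10.8 and 14.1 in Lyve1CreCsf1rfl/fl tumors. Each was above every value in Arg1 macrophages, which had 2.51 and 6.29 against 6.31 and 3.51. Ly6c2 monocytes had 1.21 and 3.75 against 2.04 and 3.71, and their range overlapped that of Arg1 macrophages. C1q macrophages had a mean of 0.751 ± 0.345 (SD, n = 4) and the remaining gates at most 0.189. Within neutrophils the transcript was spread unevenly, since the 10% of cells with the most UMIs held 57.2% of it. The share of thinned neutrophils with a UMI was 35.9%, against 0.853% of CD8 T cells.

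Spp1 (chr5:104435118-104441050, plus strand) encodes osteopontin, a secreted phosphoprotein that binds integrins and CD44. It differed from the other matrix genes in being high in a lymphocyte gate. Arg1 macrophages had 9.44 and 8.64 UMIs per 10000 in Csf1rfl/fl tumors and 5.48 and 10.2 in Lyve1CreCsf1rfl/fl tumors. NK cells had 7.91 and 3.42 against 6.11 and 6.34, and neutrophils had 2.90 and 7.42 against 5.27 and 6.36. The ranges of these 3 gates overlapped, and their order was not the same in each tumor. Other gates of T cells were far lower, at 0.584 ± 0.178 in CD8 T cells and 0.182 ± 0.124 in regulatory T cells (SD, n = 4). Thinned cells held a Spp1 UMI in 23.2% of Arg1 macrophages, 17.9% of NK cells, 13.2% of neutrophils and 2.88% of CD8 T cells.

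Spp1 was concentrated in few cells. The 10% of cells with the most Spp1 held 77.9% of its UMIs in Arg1 macrophages, 81.2% in NK cells and 92.3% in neutrophils. In Arg1 macrophages the same measure was 30.3% for Tgfbi, 31.99% for Sdc3, 35.0% for Sdc4 and 39.8% for Cd44, and it was 90.4% for Fn1. A single cell held 188 Spp1 UMIs in Arg1 macrophages, 197 in NK cells and 364 in tumor or stromal cells. The tumor or stromal gate had 0.718 and 0.640 UMIs per 10000 in Csf1rfl/fl tumors and 5.55 and 0.790 in Lyve1CreCsf1rfl/fl tumors. The Lyve1CreCsf1rfl/fl tumor of run 1 stood apart there with 28 of its 42 cells holding a Spp1 UMI, and it was at 4.03 without its highest cell.

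Sparc (chr11:55394500-55423183, minus strand), which encodes the collagen-binding protein osteonectin, was the only gene of the 10 that the leukocyte gates nearly lacked. Tumor or stromal cells had 8.17 and 7.005 UMIs per 10000 in Csf1rfl/fl tumors and 5.85 and 6.57 in Lyve1CreCsf1rfl/fl tumors. The genotypes did not overlap, with ratios of 0.716 within run 1 and 0.938 within run 2, and this difference was not tested. The share of all genes that separate in this way was not computed. The gate held 72 and 30 cells in Csf1rfl/fl tumors and 42 and 38 in Lyve1CreCsf1rfl/fl tumors. Its summed markers were at 4.49 and 9.66 UMIs per 10000 against 4.66 and 4.09. No leukocyte gate had a mean of Sparc above 0.0188. Of its 8561 UMIs, 75.8% lay in tumor or stromal cells and 19.9% in cells of no gate. After thinning, 39.6% of tumor or stromal cells held a UMI, against 0.0355% of CD8 T cells.

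Tgfbi (chr13:56609523-56639562, plus strand), whose TGFβ-induced product links collagen to integrins, was shared by all monocyte and macrophage gates. It had 11.96 and 13.1 UMIs per 10000 in Ly6c2 monocytes of Csf1rfl/fl tumors and 11.1 and 10.8 in those of Lyve1CreCsf1rfl/fl tumors. C1q macrophages had 11.0 and 14.4 against 14.1 and 15.04, and Arg1 macrophages 11.8 and 14.2 against 14.3 and 14.2. The means of the macrophage gates were both 13.6, and the ranges of these 3 gates overlapped. Cd209a dendritic cells were lower in every tumor, at 3.77 ± 0.917 (SD, n = 4), followed by neutrophils at 2.51 ± 0.365 and cDC1 at 2.30 ± 0.812. A Tgfbi UMI was found in 63.6% of thinned Ly6c2 monocytes, 66.8% of C1q macrophages and 63.6% of Arg1 macrophages, and in 2.59% of CD8 T cells.

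Ecm1 (chr3:95734147-95739569, minus strand), which encodes a glycoprotein that binds perlecan and other matrix proteins, was low but ordered. Arg1 macrophages had 1.68 and 1.41 UMIs per 10000 in Csf1rfl/fl tumors and 1.60 and 1.11 in Lyve1CreCsf1rfl/fl tumors. C1q macrophages had 0.654 and 0.750 against 0.694 and 0.837, with no overlap with Arg1 macrophages. Tumor or stromal cells had 0.554 ± 0.142 (SD, n = 4), which overlapped C1q macrophages, and Ly6c2 monocytes were below both in every tumor, at 0.314 ± 0.120. Among lymphocytes, regulatory T cells and other T cells had 0.205 and 0.189, and CD8 T cells had 0.0406.

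**Figure D2:**
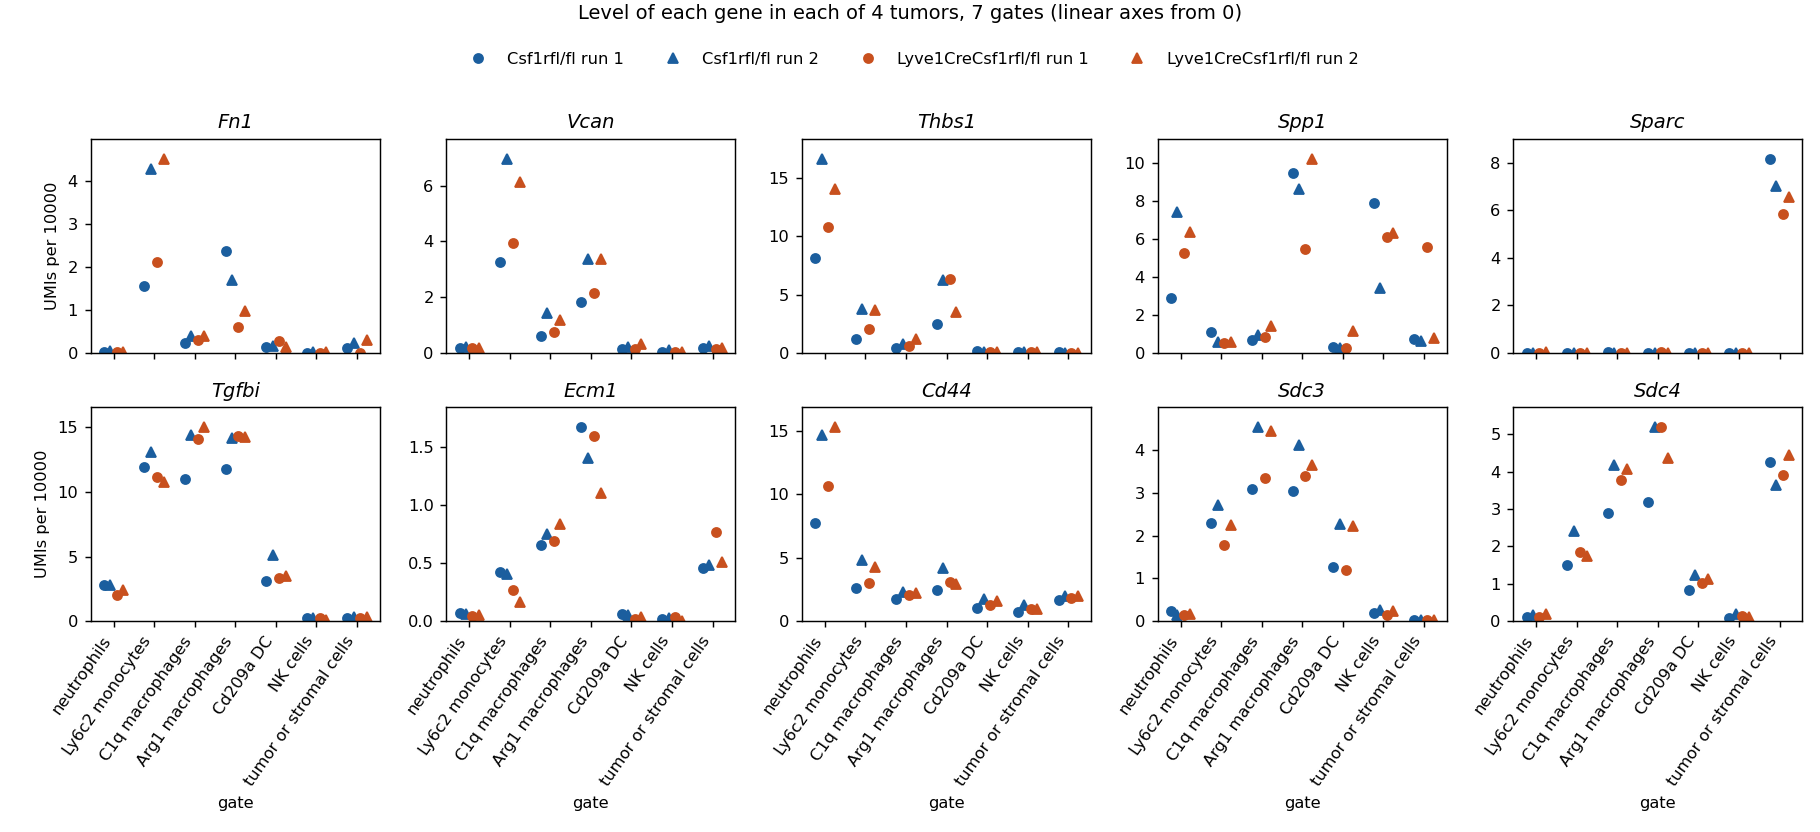
Level of each gene (UMIs per 10000, linear axes from 0) in 7 gates, with 1 point per tumor, coloured by genotype and shaped by Chromium run. In Ly6c2 monocytes the 2 triangles of run 2 lie above the 2 circles of run 1 for Fn1, Vcan, Thbs1 and Cd44, whatever the genotype.

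Among the receptors, Cd44 (chr2:102811141-102901665, minus strand) was highest in neutrophils. They had 7.75 and 14.7 UMIs per 10000 in Csf1rfl/fl tumors and 10.7 and 15.3 in Lyve1CreCsf1rfl/fl tumors. Plasmacytoid dendritic cells came second with 4.89 and 5.91 against 4.74 and 5.64, with no overlap with neutrophils and above Ly6c2 monocytes in each tumor. Ly6c2 monocytes had 2.58 and 4.83 against 3.02 and 4.31, overlapping Arg1 macrophages at 3.18 ± 0.719 (SD, n = 4). C1q macrophages and regulatory T cells had 2.07 ± 0.234 and 2.08 ± 0.344, and no gate was below 0.792. Thinned cells held a Cd44 UMI in 64.3% of neutrophils, 34.0% of plasmacytoid dendritic cells and 5.77% of cDC1.

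Sdc3 (chr4:130792537-130826319, plus strand), known as a syndecan of the nervous system, was highest in macrophages, followed by monocytes and dendritic cells. Ly6c2 monocytes held 20.5% of its 19748 UMIs, more than any other gate. C1q macrophages had 3.08 and 4.54 UMIs per 10000 in Csf1rfl/fl tumors and 3.35 and 4.44 in Lyve1CreCsf1rfl/fl tumors. Arg1 macrophages had 3.04 and 4.13 against 3.41 and 3.64 and overlapped them. Ly6c2 monocytes, at 2.27 ± 0.385 (SD, n = 4), were below both macrophage gates in all 4 tumors. Cd209a dendritic cells, plasmacytoid dendritic cells and cDC1 had 1.74, 1.69 and 1.56 with overlapping ranges. Lymphocyte gates had at most 0.293, neutrophils 0.173 and tumor or stromal cells 0.0314.

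Sdc4 (chr2:164424247-164443887, minus strand), the broadly expressed syndecan of focal adhesions, had 4 gates whose neighbours did not separate. Arg1 macrophages had 3.19 and 5.18 UMIs per 10000 in Csf1rfl/fl tumors and 5.19 and 4.36 in Lyve1CreCsf1rfl/fl tumors. Tumor or stromal cells had a mean of 4.06 ± 0.354, C1q macrophages 3.72 ± 0.581 and plasmacytoid dendritic cells 3.39 ± 0.498 (SD, n = 4). Ly6c2 monocytes were lower than these 4 gates, with 1.50 and 2.40 against 1.85 and 1.75. Regulatory T cells had 1.03 ± 0.236, above CD8 T cells at 0.147 ± 0.029. The syndecans thus differed from each other in tumor or stromal cells, where Sdc4 was among the highest gates and Sdc3 was the lowest of all 13.

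Likeness over the 13 gate means was ranked among 8655 genes, as Pearson's r of log2 levels, with members and gate markers left out. The genes most like Fn1 were Serpinb8 and Dmkn (both r = 0.953), and those most like Vcan were F13a1 (r = 0.977), the A chain of coagulation factor XIII, and the metalloproteinase gene Mmp19 (r = 0.971). For Thbs1 they were the neutrophil collagenase gene Mmp8 (r = 0.991) and Rhov (r = 0.988), and for Spp1 the angiogenic factor gene Vegfa (r = 0.856) and Errfi1 (r = 0.828). Sparc was most like Cavin3 and Fermt2 (both r = 0.999), which rested on the tumor or stromal gate. Tgfbi was most like Lrrc25 (r = 0.985) and Clec4a2 (r = 0.978), and Ecm1 was most like Adam9 (r = 0.934) and the integrin gene Itgb5 (r = 0.931). The nearest genes to Cd44 were Slpi (r = 0.921) and Arhgap24 (r = 0.914), to Sdc3 Rassf4 (r = 0.967), and to Sdc4 Rab14 (r = 0.925) and Myo5a (r = 0.913). With 13 points from shared libraries these values only describe the pattern.

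To ask how the genes differed between neighbouring myeloid types, UMIs were summed per gate and tumor and gates were compared within tumors with edgeR's quasi-likelihood test. P-values were adjusted by Benjamini and Hochberg over all genes tested. These p-values set the size of the difference between gates against its spread over the 4 tumors, with the level of each tumor taken out as a block. The spread of each gene was estimated with help from all genes tested, so small p-values do not rest on the 4 tumors alone. Sparc did not pass the filter on low counts in any of these comparisons, and the other 9 genes did.

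C1q macrophages had less fibronectin, versican and thrombospondin transcript than Ly6c2 monocytes and more of Ecm1 and both syndecans. The log2 differences were -3.20 (SE 0.12) for Fn1, -2.44 (SE 0.08) for Vcan, -1.90 (SE 0.13) for Thbs1 and -0.87 (SE 0.10) for Cd44. They were 0.98 (SE 0.18) for Ecm1, 0.90 (SE 0.09) for Sdc4 and 0.66 (SE 0.09) for Sdc3. With the stricter gate that of Fn1 was -3.98. By edgeR with n = 4 tumors, adjusted p-values for these 7 genes lay between 4.0e-12 and 4.6e-04. Thus 3 of 9 genes were called higher, where 15.9% of all 9423 genes were, and 4 of 9 lower, where 16.6% were. The median difference was 0.13 over the 9 genes and 0.02 over all genes tested. Over all genes 1498 were called higher and 1561 lower, and 1909 and 1250 when only library totals were used for scaling, with no change of direction among the 9. Tgfbi (0.13, SE 0.09, adjusted p = 0.316) and Spp1 (0.23, SE 0.22, adjusted p = 0.470) did not pass the test in edgeR. For Spp1 this rested on single tumors. The log2 difference was 0.78 (adjusted p = 1.9e-04 in edgeR) without the Csf1rfl/fl tumor of run 1 and -0.02 without the Lyve1CreCsf1rfl/fl tumor of run 2. One monocyte of the former held 176 of 677 Spp1 UMIs and 1 C1q macrophage of the latter held 52 of 73.

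Arg1 macrophages had more matrix transcript than C1q macrophages in 7 of the 9 genes. The log2 differences were 3.31 (SE 0.14) for Spp1, 2.77 (SE 0.18) for Thbs1, 2.45 (SE 0.24) for Fn1, 1.52 (SE 0.10) for Vcan and 1.13 (SE 0.14) for Ecm1. Among the receptors they were 0.70 (SE 0.10) for Cd44 and 0.34 (SE 0.09) for Sdc4. Adjusted p-values by edgeR (n = 4 tumors) were at most 2.8e-05 for the first 6 and 0.00946 for Sdc4. The difference of Fn1 was 1.72 without the Csf1rfl/fl tumor of run 1, whose highest cell is given above, and 3.36 with the stricter gate. Of the 6876 genes tested 21.4% were called, 12.8% higher and 8.54% lower, where none of the 9 genes was. The median difference was 1.13 over the 9 genes and -0.01 over all genes. Over all genes 883 were called higher and 587 lower, and 725 and 929 with library totals alone, on which scale all 7 genes were still called higher. Sdc3 (-0.02, SE 0.09) and Tgfbi (0.09, SE 0.07) did not pass, with adjusted p = 0.909 and 0.389 by edgeR. The call of Sdc4 was lost in DESeq2 (adjusted p = 0.0706), without the tumor as a block (edgeR, adjusted p = 0.249) and when cells with markers of a further lineage were left out (edgeR, adjusted p = 0.157). It was also lost without the Csf1rfl/fl tumor of run 2 (edgeR, adjusted p = 0.0634) and without the Lyve1CreCsf1rfl/fl tumor of run 1 (edgeR, adjusted p = 0.0871).

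Ly6c2 monocytes and neutrophils differed in all 9 genes, in opposite directions for different members. Log2 differences of monocytes over neutrophils were 5.14 (SE 0.19) for Fn1, 3.53 (SE 0.14) for Vcan, 2.62 (SE 0.13) for Sdc4, 2.57 (SE 0.14) for Sdc3, 1.37 (SE 0.21) for Ecm1 and 1.09 (SE 0.10) for Tgfbi. They were -4.09 (SE 0.29) for Spp1, -3.45 (SE 0.13) for Thbs1 and -2.86 (SE 0.10) for Cd44. In edgeR (n = 4 tumors) the largest adjusted p was 1.4e-05. Most genes differed between these gates, so that 6 of 9 called higher stood beside 40.3% of all 9055 genes and 3 of 9 called lower beside 36.3%. Neutrophils had 1502 to 2114 UMIs per 10000 from their 6 marker genes, among them S100a8 and S100a9, and scaling by library totals alone moved the median of all genes up by 1.15 on the log2 scale. On that scale the differences were 6.30 for Fn1 and 2.24 for Tgfbi, and -2.94, -2.30 and -1.71 for Spp1, Thbs1 and Cd44, and no gene of the 9 changed direction. The calls of all genes were then 6384 higher and 1559 lower in place of 3645 and 3290.

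**Figure D3:**
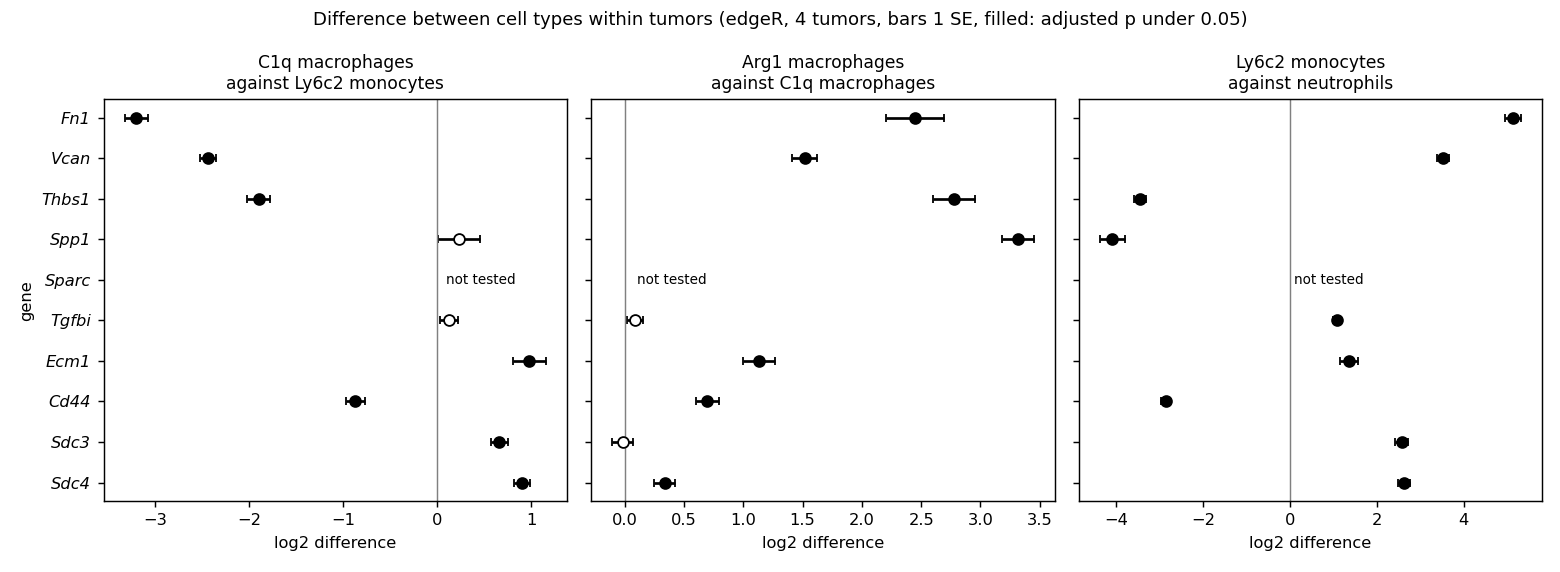
Log2 differences between gates within tumors (x axis) for each gene (y axis) in 3 comparisons, from edgeR on sums per tumor (n = 4), with bars of 1 SE and filled points for an adjusted p under 0.05. Fn1, Vcan and Thbs1 lie at -3.20, -2.44 and -1.90 in C1q macrophages against Ly6c2 monocytes and at 2.45, 1.52 and 2.77 in Arg1 macrophages against C1q macrophages.

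The wider set of matrix genes comprised 73 genes in 5 roles, and those of each role with the highest levels in monocytes and macrophages are named. In C1q macrophages against Ly6c2 monocytes, 13 of 35 tested genes were called higher, beside 15.9% of all genes, and 9 lower, beside 16.6%. The mannose receptor gene Mrc1, whose product takes up collagen fragments, was 2.86 (SE 0.13) higher on the log2 scale and the scavenger receptor gene Stab1, a hyaluronan receptor, was 2.82 (SE 0.21) higher. Srgn, which encodes the granule proteoglycan serglycin, fell by 0.74 and P4hb, a subunit of collagen prolyl hydroxylase, fell by 0.25 on the log2 scale. The median was 0.10 over the 35 genes and 0.02 over all genes. With library totals alone P4hb did not pass (-0.17, adjusted p = 0.151 in edgeR) and Lgals3 did (0.30, adjusted p = 0.00815 in edgeR). Values that did not pass were 0.22 for the galectin gene Lgals3, 0.03 for Itgam, 0.02 for Itgb2, -0.12 for Cd47, 0.07 for the transglutaminase gene Tgm2 and 0.13 for the hyaluronidase gene Cemip2.

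In Arg1 macrophages against C1q macrophages, 14 of 31 tested genes of the wider set were called higher, beside 12.8% of all genes, and 4 lower, beside 8.54%. Srgn (1.23), Lgals3 (0.94), Stab1 (0.87), P4hb (0.85), Mrc1 (0.83) and Itgam (0.35) were higher on the log2 scale, and Cd47 was lower (-0.28). Of the matricellular, glycoprotein and proteoglycan genes, 4 of 5 tested were higher and none was lower, and of the integrin subunits 3 of 12 were higher and 2 lower. The median was 0.35 over the 31 genes and -0.01 over all genes. In Ly6c2 monocytes against neutrophils, the calls of the wider set turned on the scaling, with 12 of 32 tested genes higher and 15 lower, beside 40.3 and 36.3% of all genes. With library totals alone 19 were higher and 6 lower, beside 70.5 and 17.2% of all genes. The median of the set was -0.35 and 0.80 on these scales, and that of all genes 0.16 and 1.31. Mrc1 (0.69) and Lgals3 (0.70) were higher on both, each at 1.85 with library totals, and Cd47, which did not pass with TMM (-0.05), was higher with library totals (1.099). Srgn (-3.77) and Tgm2 (-2.45) were lower on both, at -2.62 and -1.29 with library totals. Itgam (-1.23), P4hb (-1.33) and Cemip2 (-0.97) were called lower only with TMM and were at -0.08, -0.18 and 0.19 with library totals, and Itgb2 went from -0.71 to 0.44.

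The levels of many genes, members included, moved with the Chromium run. Among genes with at least 10 UMIs in a gate, both tumors of run 2 were above both of run 1 for 40.2% of 12008 genes in Ly6c2 monocytes and below for 15.7%. Of the 10 genes, Fn1, Vcan, Thbs1 and Cd44 were above there and Sparc below, and the means of run 2 were 2.40, 1.82, 2.30 and 1.63 times those of run 1. In C1q macrophages 9 of 10 genes were above, where 28.3% of all 11111 genes were, with ratios of the run means from 1.17 for Cd44 and Tgfbi to 1.98 for Thbs1. In neutrophils Thbs1, Spp1, Cd44 and Sdc4 were above (29.1% of all genes) and none was below (18.2%), and in Cd209a dendritic cells Vcan, Tgfbi, Cd44, Sdc3 and Sdc4 were above (35.4%). In Arg1 macrophages Vcan and Sdc3 were above (24.3%) and Ecm1 was below (13.6%). The run and other differences between its tumors cannot be told apart.

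Genotypes were compared on sums per tumor in 5 myeloid gates, with 2 tumors per genotype. Fewer cells of a kind within a gate and less RNA per cell cannot be told apart in such sums. With the run as a block, Fn1 in Arg1 macrophages and Spp1 in Cd209a dendritic cells passed. Neither passed without its highest cell, as given below. The main fit had no block, and in it no gene of the 10 passed the test. Of all genes, 0 were called in neutrophils, Ly6c2 monocytes, C1q macrophages and Cd209a dendritic cells (0% each) and 6 of 6383 in Arg1 macrophages (0.094%, with 0.047% higher and 0.047% lower). At an unadjusted p under 0.05 in edgeR, 105, 155, 279 and 91 genes were found in the first 4 gates and 282 in Arg1 macrophages, and DESeq2 called 0, 1, 0, 1 and 2. Among the members these were Ecm1 in Ly6c2 monocytes (1 of 9 tested, beside 1.56% of all genes), Fn1 in Arg1 macrophages (1 of 9, beside 4.42%) and Spp1 in Cd209a dendritic cells (1 of 8, beside 1.17%). No gene of the wider set passed in any of the 5 gates. With the run as a block, 2 of its 31 tested genes passed in C1q macrophages, where 1.04% of all genes did, Mrc1 (-0.75, SE 0.18, adjusted p = 0.00661 in edgeR) and Stab1 (-1.47, SE 0.37, adjusted p = 0.00945 in edgeR). Mrc1 was at 0.999 and 3.05 UMIs per 10000 in Csf1rfl/fl tumors and at 0.949 and 1.09 in Lyve1CreCsf1rfl/fl tumors, so that only the Csf1rfl/fl tumor of run 2 was clearly higher. Stab1 was at 0.209 and 0.561 against 0.158 and 0.0584. In C1q macrophages the summed Ly6c2 monocyte markers were at 45.4 and 43.5 UMIs per 10000 against 56.6 and 51.2. The summed C1q macrophage markers there were at 86.2 and 69.5 against 65.9 and 62.6. The part of these markers in the Mrc1 and Stab1 levels was not tested. With 2 tumors per genotype, the smallest 2-sided p an exact permutation test of a single value can give is 0.3333.

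Fn1 was lower in Arg1 macrophages of both Lyve1CreCsf1rfl/fl tumors, at 0.616 and 0.976 UMIs per 10000 against 2.37 and 1.69, and the genotypes did not overlap. The ratio of genotypes was 0.260 within run 1 and 0.576 within run 2. The log2 difference was -1.35 (SE 0.31), with an unadjusted p of 1.7e-04 and an adjusted p of 0.110 in edgeR. With the run as a block, in which 0.376% of all genes passed, it was -1.34 (SE 0.26, adjusted p = 7.5e-04 in edgeR). Without the cell of the gate with the most Fn1 UMIs, which held 127 in the Csf1rfl/fl tumor of run 1, the difference was -0.95 (adjusted p = 0.613 in edgeR). It was -0.96 with the block as well (adjusted p = 0.0816 in edgeR). The highest cells of the other tumors were kept in these fits. Over the 13 alternatives it lay between -1.65 and -0.95 and passed in 4, with adjusted p from 6.4e-04 (edgeR, without the Csf1rfl/fl tumor of run 2) to 0.788 (DESeq2). Cells with an Fn1 UMI, without thinning, made up 17.7 and 25.4% of Arg1 macrophages in the Csf1rfl/fl tumors and 14.02 and 17.8% in the Lyve1CreCsf1rfl/fl tumors. In the same gate the summed Ly6c2 monocyte markers were at 40.4 and 39.3 against 49.5 and 62.0 UMIs per 10000, and the summed C1q macrophage markers at 36.5 and 22.5 against 13.9 and 20.1. The part of these markers in the Fn1 level was not tested.

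Ecm1 was lower in Ly6c2 monocytes of both Lyve1CreCsf1rfl/fl tumors, at 0.265 and 0.167 UMIs per 10000 against 0.420 and 0.404. The log2 difference was -0.92 (SE 0.29), with an unadjusted p of 0.0117 and an adjusted p of 0.9999 in edgeR. Ratios were 0.630 within run 1 and 0.413 within run 2. No cell held more than 5 of its UMIs, and cells with a UMI made up 16.6 and 16.2% against 10.1 and 7.69%. The difference lay between -1.41 and -0.54 over 13 alternatives and passed in 1, without the Csf1rfl/fl tumor of run 2 (adjusted p = 0.0492 in edgeR). In the same gate, 3 of 37 tested genes of the wider set had an unadjusted p under 0.05 in edgeR, beside 1.56% of all genes, and none passed. The differences of the 37 genes ran from -1.34 to 0.84, with a median of -0.04. Among them Mrc1 was at -1.18 (SE 0.31, unadjusted p = 0.00395 in edgeR) and Stab1 at -1.34 (SE 0.67, unadjusted p = 0.0740 in edgeR), and each had an adjusted p of 0.9999. The summed C1q macrophage markers of the gate were 3.40 and 2.39 UMIs per 10000 in Csf1rfl/fl tumors and 2.88 and 2.26 in Lyve1CreCsf1rfl/fl tumors, and the part of such cells in the Ecm1 level was not tested.

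In 4 other gates Ecm1 in both Lyve1CreCsf1rfl/fl tumors was also below both Csf1rfl/fl tumors, with 23 to 63 UMIs in all 4 tumors together. It was instead above both in other T cells (156 UMIs, ratios of 1.65 in run 1 and 1.14 in run 2). The same held in tumor or stromal cells (507 UMIs, ratios of 1.68 and 1.04), and neither gate was tested. In cDC1 Fn1, Vcan, Thbs1, Tgfbi and Sdc4 were also lower without overlap, and the other members overlapped. In mature dendritic cells Fn1, Vcan, Spp1, Tgfbi and Cd44 were also lower without overlap. The share of all genes that separate in either direction was not computed for any of these gates. The numbers of members that separate therefore have no background to be read against. The Ecm1 ratios of run 1 and run 2 were 0.338 and 0.606 in Cd209a dendritic cells, 0.127 and 0.306 in cDC1, 0.633 and 0.592 in mature dendritic cells and 0.717 and 0.987 in neutrophils. Only neutrophils gave a test of these, and it did not pass (-0.27, SE 0.42, adjusted p = 0.9998 in edgeR). In Arg1 macrophages the ratios were 0.953 and 0.785 and in C1q macrophages 1.06 and 1.12, and in both gates the genotypes overlapped. In cDC1 the summed C1q macrophage markers were at 7.77 and 2.29 UMIs per 10000 in Csf1rfl/fl tumors against 0.130 and 0.364. In mature dendritic cells they were at 3.83 and 1.16 against 1.19 and 1.90. Csf1r was at 0.295 and 0.173 against 0.0591 and 0.0759 in cDC1. In mature dendritic cells Csf1r was at 0.348 and 0.197 against 0.105 and 0.0612. The part of macrophages in these Ecm1 levels was not tested.

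Spp1 in Cd209a dendritic cells was at 0.338 and 0.260 UMIs per 10000 in Csf1rfl/fl tumors and at 0.289 and 1.17 in Lyve1CreCsf1rfl/fl tumors. The genotypes overlapped, and only the Lyve1CreCsf1rfl/fl tumor of run 2 was high. The log2 difference was 1.23 (SE 0.45), with an unadjusted p of 0.0170 and an adjusted p of 0.9997 in edgeR, and 1.20 with the run as a block (SE 0.24, adjusted p = 6.5e-04 in edgeR), in which 0.374% of all genes passed. A single cell held 77 of the 106 UMIs of that tumor. Without that cell, and with all cells of the other tumors kept, the difference was 0.06, and 0.05 with the block, with adjusted p = 0.9998 and 0.999 in edgeR. It was 0.09 without that tumor and 0.02 with the stricter gate, and it passed in 2 of 13 alternatives, with the block and without the Lyve1CreCsf1rfl/fl tumor of run 1 (1.88, adjusted p = 0.0402 in edgeR).

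**Figure D4:**
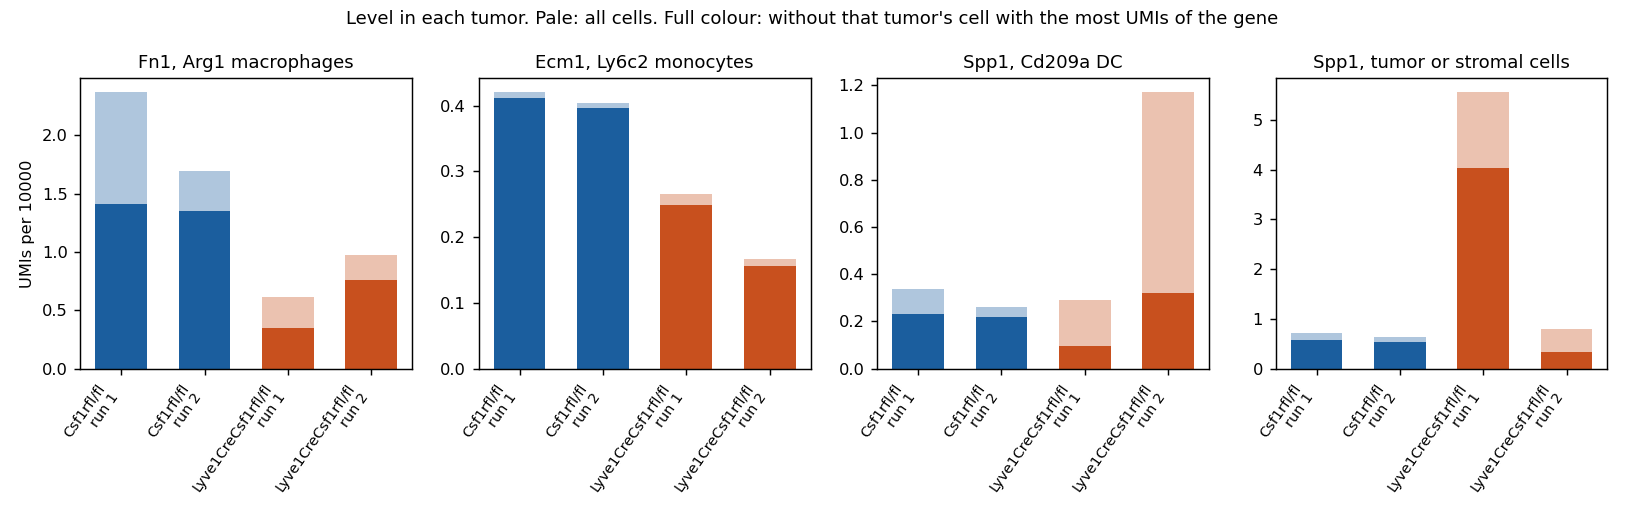
Level in each tumor (UMIs per 10000, bars from 0, 1 bar per tumor) of Fn1 in Arg1 macrophages, Ecm1 in Ly6c2 monocytes and Spp1 in Cd209a dendritic cells and tumor or stromal cells. Pale bars count all cells and full bars leave out the cell of each tumor with the most UMIs of the gene, which takes Spp1 in the Cd209a dendritic cells of the Lyve1CreCsf1rfl/fl tumor of run 2 from 1.17 to 0.320.

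Whether the genotype difference itself differed between C1q macrophages and Ly6c2 monocytes was tested as an interaction within tumors, in which 4 of 10132 genes passed (0.0395%) and none of the 10 did. The log2 interaction was 1.06 (SE 0.28) for Ecm1, 0.44 (SE 0.12) for Tgfbi, 1.08 (SE 0.40) for Spp1 and 0.41 (SE 0.14) for Sdc3, with positive values where the ratio of Lyve1CreCsf1rfl/fl to Csf1rfl/fl was higher in C1q macrophages. In edgeR with 2 tumors per genotype the unadjusted p was 0.00210, 0.00196, 0.0172 and 0.0129 and the adjusted p 0.277, 0.266, 0.512 and 0.494. An unadjusted p under 0.05 was thus found for 4 of 9 genes, beside 7.93% of all genes. Tgfbi means were 12.52 and 11.0 UMIs per 10000 in Ly6c2 monocytes of Csf1rfl/fl and Lyve1CreCsf1rfl/fl tumors and 12.7 and 14.6 in C1q macrophages. For Spp1 the C1q macrophage value of the Lyve1CreCsf1rfl/fl tumor of run 2 was the one in which a single cell held 52 of 73 UMIs, and the interaction was -0.29 when cells with markers of a further lineage were left out. Over 10 alternatives Ecm1 passed in 3, Tgfbi and Spp1 in 2 each and Sdc3 in 0. Without the Lyve1CreCsf1rfl/fl tumor of run 1, Ecm1 (1.64, adjusted p = 0.0163) and Tgfbi (0.54, adjusted p = 0.0343) passed in edgeR. Without the Csf1rfl/fl tumor of run 2, Ecm1 (1.16, adjusted p = 0.0225) and Spp1 (1.72, adjusted p = 3.2e-08) passed in edgeR. Without the Csf1rfl/fl tumor of run 1, in contrast, Spp1 was at 0.26, Tgfbi at 0.27 and Sdc3 at 0.20, and without the Lyve1CreCsf1rfl/fl tumor of run 2 Ecm1 was at 0.64, and none of these passed.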

How the data were processed

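Viable CD45+ cells of 4 EO771 tumors were sequenced with the Chromium 3′ v2 kit in 2 runs. Per the labels, the authors used Cell Ranger 6.0.1 with mm10 and Seurat. The deposited gene table and the deposited hashtag table hold raw counts of UMIs per barcode. The deposited corrected table holds a score per gene, whole-number corrected counts of the cells the authors kept, and was used only for the names of the 28429 kept of 53361 barcodes. A deposited metadata table links each hashtag to a genotype and run. Genotypes rest on it.

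Hashtag counts were normalized by centered log ratio within a run, and each cell went to the tumor of its higher hashtag. That hashtag was under 3 times the other in 6.82% of cells of the Csf1rfl/fl tumor of run 1. In the other tumors this share was 0.218 to 1.41%. With such cells left out, all 130 levels stayed within the spread between tumors. Cells were gated by marker lists with minimum UMIs per 10000 and markers detected. Per the study's methods the authors had kept only cells called singlets with a low share of mitochondrial reads. They had also removed all cells of clusters that came almost only from the Lyve1CreCsf1rfl/fl tumor of run 2. The study describes these as lymphocytes high in ribosomal genes, and all levels here rest on the cells left. Cells positive for several lineages were also left out here against doublets. Gates are not the clusters of the study. The B cell gate, with 20 cells, was not described. Levels are UMIs of a gene over all UMIs of the gate in a tumor, times 10000. They are shares of the counted RNA and not amounts per cell. Median depth ran from 1976 UMIs per cell in neutrophils to 47353.5 in tumor or stromal cells. Thinned shares used the cells of all tumors pooled, thinned at random to 1000 UMIs, leaving out 0 to 152 shallower cells per gate. Intervals are exact binomial over these cells and cover counting error only, not the spread between tumors. Free RNA was not removed.

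Sums per gate and tumor were filtered with filterByExpr, scaled by TMM and tested with the quasi-likelihood test of edgeR 4.0.16 in R 4.3.3, with a threshold of 0.05 on the adjusted p. Gate comparisons had the tumor as a block. Python 3.11.15 was used. DESeq2 1.42.0, other scaling, no filter, run as a block, each tumor left out, a hashtag margin of 3, gates of 2 times the thresholds and removal of cells with further lineage markers were tried, and library totals and removal of the highest cell were added after the data were seen. The labels give the run of each library, and same-run tumors deviated together, with r = 0.232 to 0.562 across genes between the run differences of the genotypes in 5 gates, so the run pairs the tumors. Coordinates are from GENCODE vM21 (mm10). Spp1 and Ecm1 each overlap 1 annotated gene on their strand, and their counts could include its reads. The 10 genes, the wider set and the marker lists were chosen with earlier results of these data known. Named genes are the 10, the 2 of each role with the highest level, those past a genotype test and the 2 most alike, of which 1 is not reported here.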

Additional observations from a re-analysis of the deposited data

Results flagged for a closer look

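Tgfbi differed in direction between gates, and no difference passed in the 5 gates tested. It was lower in Lyve1CreCsf1rfl/fl tumors in neutrophils (2.02 and 2.45 against 2.77 and 2.81 UMIs per 10000) and in Ly6c2 monocytes (11.1 and 10.8 against 11.96 and 13.1), and higher in Arg1 macrophages (14.3 and 14.2 against 11.8 and 14.2). The log2 ratios of genotype means differed by 0.46 between Arg1 macrophages and neutrophils and by 0.33 between Arg1 macrophages and Ly6c2 monocytes, and these differences were not tested. The pattern was picked out of a scan of the 10 genes over pairs of the 5 gates. The share of all genes with such a pattern was not computed. In Arg1 macrophages the ratio was 1.21 in run 1 and 1.004 in run 2. The ratio of genotype means was further from 1 in other gates, at 0.542 in cDC1 (0.462 in run 1 and 0.622 in run 2) and 0.519 in mature dendritic cells (0.536 and 0.501), neither of which was tested. Csf1r was at 0.295 and 0.173 against 0.0591 and 0.0759 UMIs per 10000 in cDC1. In mature dendritic cells it was at 0.348 and 0.197 against 0.105 and 0.0612. Summed C1q macrophage markers were at 7.77 and 2.29 against 0.130 and 0.364 in cDC1, and overlapped in mature dendritic cells. The part of macrophages in these Tgfbi levels was not tested. In C1q macrophages the Tgfbi ratio was 1.15 (1.28 and 1.05), with overlap of the genotypes.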

How the results depend on the processing

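Among the cell type comparisons, the calls of Arg1 over C1q macrophages (1470) were 665 in DESeq2, 968 with cells of a further lineage left out and 617 without the tumor block, and 892 to 1523 when 1 tumor was left out. Those of C1q macrophages over Ly6c2 monocytes (3059) were 1825 in DESeq2 and 1803 without the tumor block, and 1836 to 3024 without 1 tumor. Those of Ly6c2 monocytes over neutrophils (6935) were 6446 to 6807 without 1 tumor. Spp1 turned to -0.0204 in C1q macrophages over Ly6c2 monocytes (-0.0204 to 0.78 without 1 tumor), Sdc3 to 0.0199 in Arg1 over C1q macrophages (-0.0711 to 0.0199), and the interaction of Spp1 to -0.29 with further lineage cells left out. The interaction (4 genes) called 15 in DESeq2, 12 with RLE scaling, 9 with further lineage cells left out, 21 with the hashtag margin, 123 without the filter, 31 with the stricter gate and 7 to 66 without 1 tumor.

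For genotype, the run as a replicate block gave 24 genes in Arg1 macrophages (6), 88 in C1q macrophages (0), 29 in Cd209a dendritic cells (0), 5 in Ly6c2 monocytes (0) and 12 in neutrophils (0). The block changed the call of 2 of the 10 genes, Fn1 in Arg1 macrophages and Spp1 in Cd209a dendritic cells, and of 2 genes of the wider set, Mrc1 and Stab1 in C1q macrophages, and changed no other call in these lists. The block without the highest cell of each gene gave 21, 88, 28, 5 and 12 genes in the same order, and neither of the 2 passed. Without the filter the counts were 29, 32, 14, 1 and 3. DESeq2 gave 2 in Arg1 macrophages and 1 each in Cd209a dendritic cells and Ly6c2 monocytes. Leaving out further lineage cells gave 10, 2 and 2 in Arg1 macrophages, C1q macrophages and Cd209a dendritic cells, the stricter gate 3 and 3 in Arg1 and C1q macrophages, and the hashtag margin 2 in Cd209a dendritic cells. Without 1 tumor the counts were 7 to 39, 1 to 31, 5 to 25, 12 to 46 and 5 to 14 in the order above, with the lone tumor of a genotype assumed to vary like the others. The cause of these changes was not tested.

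Of 46 other member differences, 38 changed sign under at least 1 alternative and 1 passed the test under 1. Of 390 levels under other gates or margins, 20 moved by more than the spread between tumors, and 120 of 130 shares moved without thinning. Sums of macrophage gates rest on few cells in some tumors, down to 84 C1q and 73 Arg1 macrophages in the Lyve1CreCsf1rfl/fl tumor of run 2. With 2 tumors per genotype, a p that misses the threshold does not show equal levels.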
